A study of Mus musculus with 6 samples.

Results

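Skeletal muscle contractile genes are described here in RNA of cochleae from mouse embryos with and without Igf1, the gene of the secreted insulin-like growth factor 1. The group holds 32 genes, taken from a list of muscle genes that was drawn up with earlier results of these data known. All 32 were measured on the arrays, out of 12393 genes, and each was read at its single-gene probe set with the highest mean over the 6 arrays. A probe set is the group of short probes that reads one transcript.

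Embryos came from matings of heterozygous parents on a C57BL/6J background and were taken at embryonic day 18.5, although the source field of 1 wild type pool gives an age slightly later. One genotype carried the intact gene (Igf-1+/+, called wild type) and the other lacked it (Igf-1-/-, called null). Each of the 6 samples pooled 4 cochleae from 2 embryos, with 3 pools per genotype, and its RNA was put on an Affymetrix array of 1 colour. The otic capsule, the cartilage and bone around the cochlea, was kept in the dissection and the vestibular organs were removed. Genotypes were taken from the titles and descriptions, since the source field of the null samples reads Igf-1 +/+. Pooling leaves the spread between single embryos unknown. Levels are log2 signals after quantile normalization, which gives all arrays the same distribution of values, and differences are null minus wild type.

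Striated muscle shortens when myosin heads of the thick filament pull on the actin of the thin filament. Calcium released from the sarcoplasmic reticulum starts this by binding troponin C, and troponin I and troponin T pass the signal on to the thin filament. The Z disc and the M line hold the filaments in register, and creatine kinases and glycolysis refill the energy store. Muscle precursors are led into this programme by the factors MyoD and myogenin, which bind E-boxes, helped by the MEF2 factors and by serum response factor, which binds CArG boxes. The inner ear itself is not a skeletal muscle tissue, while the small muscles of the middle ear and muscles of the head lie close to the otic capsule.

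The start regions of 5 of the 32 genes are shown. The movement of the group from pool to pool is described after them. RefSeq windows of build GRCm38.p6 were given for 25 of the 32 genes, from 250 bases before to 50 bases after the start of the transcript. They are printed 5′ to 3′ on the strand of the gene, and capitals mark matches to the MEF2 consensus, the CArG box or the E-box CAGCTG on either strand. Acta1 encodes skeletal actin, Tnni1 slow troponin I, Mylpf the regulatory light chain of fast myosin, Myh8 the perinatal myosin heavy chain, and Ttn titin, the giant spring of the sarcomere. For Tnni1 the upstream one of the 2 windows given is printed. Each of the 5 windows holds a marked match, which not all of the 25 genes have.
Acta1, chr8:123894726-123895025, minus strand: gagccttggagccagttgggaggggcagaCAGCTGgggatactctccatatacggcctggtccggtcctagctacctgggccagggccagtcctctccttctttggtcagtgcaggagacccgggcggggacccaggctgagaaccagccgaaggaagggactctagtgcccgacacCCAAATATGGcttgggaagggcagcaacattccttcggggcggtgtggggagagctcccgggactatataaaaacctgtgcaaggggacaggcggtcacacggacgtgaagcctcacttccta
Tnni1, chr1:135799171-135799470, plus strand: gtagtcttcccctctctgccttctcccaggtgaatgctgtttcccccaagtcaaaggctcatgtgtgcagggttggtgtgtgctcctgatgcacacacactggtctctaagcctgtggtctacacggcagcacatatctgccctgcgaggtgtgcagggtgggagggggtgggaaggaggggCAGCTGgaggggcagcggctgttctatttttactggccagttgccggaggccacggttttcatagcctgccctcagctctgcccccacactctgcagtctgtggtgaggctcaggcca
Mylpf, chr7:127211358-127211657, plus strand: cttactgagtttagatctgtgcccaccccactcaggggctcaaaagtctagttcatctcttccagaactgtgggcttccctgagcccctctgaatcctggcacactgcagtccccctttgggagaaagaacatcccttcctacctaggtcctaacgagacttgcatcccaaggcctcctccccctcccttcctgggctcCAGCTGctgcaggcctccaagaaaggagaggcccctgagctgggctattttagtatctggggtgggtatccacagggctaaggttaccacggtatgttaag
Myh8, chr11:67276874-67277173, plus strand: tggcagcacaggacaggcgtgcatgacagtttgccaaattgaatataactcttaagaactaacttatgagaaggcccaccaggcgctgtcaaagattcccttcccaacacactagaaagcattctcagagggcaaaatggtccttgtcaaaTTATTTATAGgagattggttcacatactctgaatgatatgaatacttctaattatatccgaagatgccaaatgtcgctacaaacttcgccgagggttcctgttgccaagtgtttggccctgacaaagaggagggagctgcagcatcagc
Ttn, chr2:76982498-76982797, minus strand: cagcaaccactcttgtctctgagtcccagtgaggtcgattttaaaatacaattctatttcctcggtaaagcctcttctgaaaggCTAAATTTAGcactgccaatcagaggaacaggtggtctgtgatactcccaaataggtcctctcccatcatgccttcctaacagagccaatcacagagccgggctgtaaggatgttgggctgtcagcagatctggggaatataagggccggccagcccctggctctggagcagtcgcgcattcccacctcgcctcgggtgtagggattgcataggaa

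Positions in these windows count the first transcribed base as 1 and the base before it as -1. Acta1 held a CArG match, CCAAATATGG, from -73 to -64 and the E-box CAGCTG from -221 to -216. Myh8 and Ttn held a MEF2 match, TTATTTATAG from -99 to -90 and CTAAATTTAG from -166 to -157. The E-box CAGCTG lay at -68 to -63 in the Tnni1 window and at -51 to -46 in Mylpf.

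Over the 25 genes, 12 had the E-box CAGCTG in a window (48%), against 18.3% of all 27025 genes with a window. The other 9 of these 12, beside Acta1, Tnni1 and Mylpf, were Myl1, Mybph, Des, Casq1, Atp2a1, Ckm, Ckmt2, Eno3 and Mb. A MEF2 match stood in 3 genes (Myh8, Myh1 and Ttn), or 12%, against 3.70% of all genes, and a CArG match in 3 (Acta1, Ldb3 and Myom1), or 12%, against 1.81%. The list was drawn up as muscle genes, many of them MEF2 targets, so the MEF2 share is not independent of how the genes were chosen. Windows of Tnnc2, Tnnt1, Tnnc1, Myh3, Myl4, Actn2, Ryr1 and Myog held none of the marked motifs. These genes also followed the pool pattern described below, and a link of the motifs to that pattern was not tested. The looser E-box CANNTG, which includes CAGCTG, was in 84% of the 25 genes and in 75.0% of all, and TATAAA in 28% and 15.7%. Each motif was searched on both strands, a TATAAA match overlaps the MEF2 match in Myh8 and in Myh1 (where 1 of 2 does), and a match describes letters and not a bound site.

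Muscle signal differed several fold between pools of the same genotype, and the genotypes overlapped for each of the 32 genes. The muscle level of a pool is the mean over the 32 genes of its log2 signal minus the mean of the gene over the 6 pools. It was 0.25, -1.29 and 0.86 in wild type pools 1 to 3 and 0.88, 0.12 and -0.82 in null pools 1 to 3. Wild type pool 3 and null pool 1 were thus the highest and nearly equal, wild type pool 2 was the lowest and null pool 3 the next lowest. The distance between the highest and the lowest pool was 2.17, a 4.49-fold difference. The rank of null pool 1 depended on the scaling. On the values as deposited, where its array had the lowest median, it stood at 0.40 and wild type pool 3 at 0.80. Wild type pool 1 (0.36) and null pool 2 (0.33) were then close to it. With median centring null pool 1 stood at 0.94 and wild type pool 3 at 0.86.

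The pool levels on the normalized values were shared by nearly the whole group. Null pool 1 held the highest signal for 20 of the 32 genes and wild type pool 3 for the other 12, while over all genes these pools were the highest for 19.1% and 13.0%. Wild type pool 2 held the lowest signal for 24 genes and null pool 3 for the other 8, against 19.4% and 16% of all genes. In wild type pool 3 and in null pool 1, 32 of 32 genes lay above their own mean, in wild type pool 2 none did, and in null pool 3 only Mybph and Myh1 did. The range over the 6 pools had a median of 2.14 for the 32 genes (lowest 1.21, Tcap; highest 5.87, Mb), against 0.62 for all genes. A range above 1 was seen in 32 of the 32 and in 35.4% of all genes. Within a genotype the median range was 1.83 among wild type and 1.67 among null pools, against 0.40 and 0.42 for all genes. In RNA of whole tissue, fewer muscle cells and less muscle RNA per cell cannot be told apart.

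**Figure D1:**
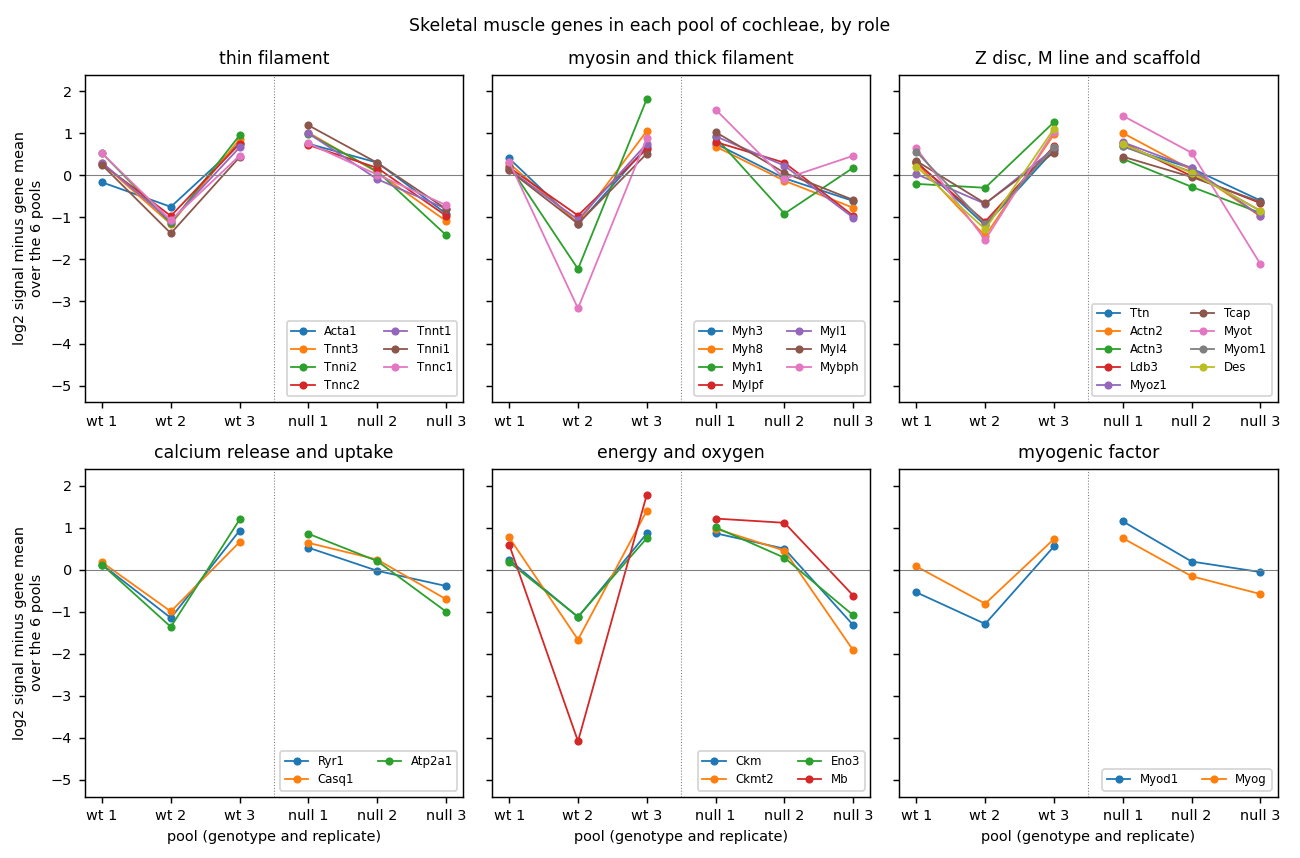
Log2 signal of each of the 32 genes minus its mean over the 6 pools (vertical axis) by pool (horizontal axis), in 6 panels by role; lines join the pools of one genotype for each gene and show no order in time. In each role wild type pool 2 and null pool 3 are low and wild type pool 3 and null pool 1 high, except that Mybph and Myh1 lie above their mean in null pool 3.

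The question posed by the design was whether cochleae without Igf1 differ from wild type, and no muscle gene passed the test of it. In limma, fitted over all 12393 genes with Benjamini-Hochberg adjustment, 0 of the 32 genes were higher and 0 lower at an adjusted p of 0.05, as for all genes, where 0% were called higher and 0% lower. At an unadjusted p under 0.05 there were 0 of the 32, against 4.94% of all genes. The smallest unadjusted p among the 32 was 0.190, for Myod1, and the adjusted p ran from 0.998 to 1. In none of the 32 did the 3 null pools lie all above or all below the 3 wild type pools, a separation that 5.62% of all genes showed upwards and 4.98% downwards.

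The sign was positive for 23 of the 32 genes and negative for 9, and the median difference was 0.06, against 0.0062 over all genes. On the values as deposited, where the median gene differed by -0.14, the sign was positive for 10 and negative for 22 (median -0.08). The standard error of a difference had a median of 0.65 for the 32 genes and 0.18 for all genes. With this error the 95% interval of Acta1, for example, ran from -1.37 to 1.56, and that of Tnnc2 from -1.61 to 1.53. Intervals this wide hold more than 2-fold changes in either direction, and so they do not show that muscle genes were alike in the genotypes.

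Sample titles also hold the number 14 (pool 1 of both genotypes) or 16 (the other pools), and the labels do not explain it. Between the 2 pools of title number 14 all 32 genes were higher in the null pool, with a median of 0.63. This sets 1 array against 1 array and depended on the scaling. On the values as deposited their muscle levels were 0.36 in the wild type and 0.40 in the null pool, against 0.25 and 0.88 after normalization. Among the 4 pools of title number 16, 26 of the 32 were lower in the null pools and 6 higher, with a median of -0.22. On the normalized values the direction of the muscle genes thus turned with the pools compared. Leaving out wild type pool 2 gave a median of -0.50 with 30 of 32 genes lower, and leaving out null pool 3 gave 0.51 with 31 of 32 higher. Without wild type pool 3 the median was 0.45, without null pool 1 it was -0.35, without wild type pool 1 it was 0.20 and without null pool 2 it was 0.02. In each of these 6 fits 0 of the 32 genes passed the adjusted threshold.

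Actin and the troponins, the proteins of the thin filament, followed the pool pattern. Acta1 measured 11.89, 11.31 and 12.82 in wild type pools 1 to 3 and 12.81, 12.36 and 11.14 in null pools 1 to 3. Tnnc2, the troponin C of fast fibres, measured 11.20, 9.96 and 11.68 in wild type and 11.64, 11.10 and 9.96 in null pools. For both genes the highest pools of the genotypes differed little, as did the lowest ones, and the means nearly coincided. For Acta1 the wild type mean was 12.01 ± 0.76 (SD, n = 3), the null mean 12.10 ± 0.86 (SD, n = 3), and the difference 0.10 ± 0.58 (SE).

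Fast and slow forms of the troponins ran in parallel over the pools. The fast troponin I gene Tnni2 measured 10.30, 8.63 and 10.73 in wild type and 10.75, 9.86 and 8.35 in null pools. Its slow counterpart Tnni1 measured 8.64, 7.01 and 8.83 in wild type and 9.58, 8.69 and 7.59 in null pools. Both genes were low in wild type pool 2 and null pool 3, and the genotypes overlapped for each. Tnni1 differed by 0.46 ± 0.71 (SE) and Tnni2 by -0.23 ± 0.83 (SE). The troponin T genes Tnnt3 (fast) and Tnnt1 (slow) differed by 0.0047 ± 0.74 and 0.08 ± 0.65 (SE), and the slow and cardiac troponin C gene Tnnc1 by 0.05 ± 0.59 (SE).

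Myosins of the developing fibre followed the same pools. Myh3, the embryonic heavy chain, measured 11.00, 9.44 and 11.27 in wild type and 11.35, 10.53 and 9.99 in null pools. Myh8, the perinatal heavy chain that follows it, measured 10.34, 8.93 and 11.12 in wild type and 10.75, 9.93 and 9.29 in null pools. Myh3 differed by 0.05 ± 0.61 (SE) and Myh8 by -0.14 ± 0.67 (SE), each a small part of the range between pools. The adult fast heavy chain gene Myh1 ranged furthest of the heavy chains, with 6.14, 3.68 and 7.73 in wild type and 6.81, 5.0 and 6.09 in null pools. Its probes can share sequence with the heavy chains of the same gene cluster, so the reading is uncertain.

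Light chains repeated the pattern. Mylpf measured 11.39, 10.25 and 11.84 in wild type and 12.00, 11.51 and 10.24 in null pools, and differed by 0.09 ± 0.62 (SE). The fast essential light chain gene Myl1 differed by 0.10 ± 0.68 (SE) and Myl4, the light chain of embryonic muscle and atrium, by 0.34 ± 0.60 (SE). Mybph, the myosin binding protein H gene, gave the largest difference of the 32, 1.30 ± 1.18 (SE), at a low level. Its values were 5.81, 2.32 and 6.37 in wild type and 7.05, 5.40 and 5.95 in null pools, and the difference was 0.05 without wild type pool 2.

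Genes of the Z disc, the M line and the scaffold spanned the same order of pools. Ttn measured 10.87, 9.36 and 11.15 in wild type and 11.24, 10.71 and 9.95 in null pools. Actn2, the actinin that crosslinks actin at the Z disc, measured 9.10, 7.36 and 9.78 in wild type and 9.81, 8.93 and 7.82 in null pools. Des, the intermediate filament gene desmin, measured 7.85, 6.36 and 8.75 in wild type and 8.38, 7.70 and 6.79 in null pools. None of the 3 separated the genotypes, with differences of 0.17 ± 0.59, 0.11 ± 0.80 and -0.03 ± 0.73 (SE).

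Other genes of this role varied more or less than these. Myot, the Z disc protein myotilin, had the widest range here, 3.53, from 8.36 in null pool 1 to 4.83 in null pool 3. Tcap, the titin cap, had the narrowest, 1.21. Actn3, the actinin of fast fibres, differed by -0.52 ± 0.55 (SE), the lowest value of the 32, with 5.96, 5.87 and 7.43 in wild type and 6.56, 5.89 and 5.27 in null pools. The Z disc genes Ldb3 and Myoz1 differed by 0.07 ± 0.60 and 0.0053 ± 0.56 (SE), and the M line gene Myom1 by -0.05 ± 0.65 (SE).

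Calcium handling moved with the filaments. Atp2a1, the calcium pump of the sarcoplasmic reticulum in fast fibres, measured 8.46, 6.98 and 9.54 in wild type and 9.20, 8.55 and 7.35 in null pools. Ryr1, its calcium release channel, measured 6.61, 5.34 and 7.42 in wild type and 7.01, 6.46 and 6.10 in null pools. Casq1, the calcium store protein calsequestrin, measured 8.06, 6.89 and 8.54 in wild type and 8.52, 8.13 and 7.18 in null pools. For all 3 genes wild type pool 3 was the highest and wild type pool 2 the lowest, so the wild type pools bracketed the null pools. The differences were 0.04 ± 0.80, 0.07 ± 0.58 and 0.11 ± 0.55 (SE).

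Energy and oxygen genes also followed the pools. Ckm, the creatine kinase of muscle, measured 10.50, 9.14 and 11.13 in wild type and 11.13, 10.77 and 8.95 in null pools. The muscle enolase gene Eno3 measured 9.84, 8.54 and 10.41 in wild type and 10.66, 9.94 and 8.57 in null pools. Ckm differed by 0.03 ± 0.78 (SE) and Eno3 by 0.13 ± 0.72 (SE). The mitochondrial creatine kinase gene Ckmt2, with a range of 3.32, differed by -0.33 ± 1.12 (SE). Mb, the oxygen-binding protein myoglobin, fell to -1.11 in wild type pool 2 from 4.76 in wild type pool 3, and measured 3.56 in wild type pool 1 and 4.19, 4.08 and 2.35 in null pools. Such values lie near the bottom of the scale, where log2 signal spreads widely, and the 1.14 ± 1.64 (SE) of Mb carries little information.

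Transcription factors of the muscle programme, Myod1 (MyoD) and Myog (myogenin), also overlapped between genotypes. Myog measured 6.81, 5.92 and 7.46 in wild type and 7.48, 6.58 and 6.15 in null pools, and differed by 0.0052 ± 0.52 (SE). Myod1 measured 4.07, 3.32 and 5.16 in wild type and 5.76, 4.80 and 4.55 in null pools, and differed by 0.85 ± 0.57 (SE). Wild type pool 3 stood above 2 of the null pools for Myod1, so the groups overlapped, and limma gave adjusted p = 0.998. Myod1, Mb, Mybph, Myh1 and Tcap were the 5 genes below the 40th percentile of gene level.

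Other probe sets of the same genes were read as a check. Among the 32 genes, 8 had more than 1 single-gene probe set, 11 further probe sets in all. At 3 of the 11 the sign of the difference was opposite to that of the gene's brightest probe set. These were Myh1 (-0.53), Myl4 (-0.83) and Ldb3 (-0.09). The Myh1 and Myl4 ones lay at a mean log2 signal of -2.68 and 1.53, close to the bottom of the scale. A second Ttn probe set measured 10.06, 8.39 and 10.27 in wild type and 10.50, 9.89 and 9.0 in null pools, in the same order of pools as the first within each genotype.

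Muscle genes outside the group showed, as list means, the same order of pools within each genotype. The list of 24 other sarcomere genes had 18 measured members, and their mean level was 0.50, -1.12 and 0.73 in wild type pools 1 to 3 and 0.69, 0.11 and -0.91 in null pools 1 to 3. Its brightest genes were Fhl1, a LIM protein of muscle, and the tropomyosins Tpm1 and Tpm2, which lie along the thin filament. They differed by 0.24 ± 0.42, -0.12 ± 0.51 and -0.30 ± 0.34 (SE). The null pools were higher for 10 of the 18 genes and lower for 8 (median 0.04), and none passed.

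Further muscle lists ran from close to looser likeness. Other calcium and energy genes of muscle, 17 of 20 measured, stood at 0.22, -0.75 and 0.55 in wild type and 0.64, -0.02 and -0.63 in null pools. Sln, the inhibitor of the calcium pump, measured 9.82, 8.22 and 10.38 in wild type and 10.67, 9.77 and 8.5 in null pools, whereas the phosphofructokinase gene Pfkm stayed between 8.76 and 9.25. Cox6a2, a respiratory chain subunit of striated muscle, differed by 0.22 ± 0.59 (SE), and 8 genes of the list were higher in null and 9 lower (median -0.04).

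Genes of the neuromuscular junction, 9 of 10 measured, stood at -0.19, -0.66 and 0.17 in wild type and 0.72, 0.13 and -0.17 in null pools, 7 of them higher in null (median 0.48). This list was dim, with a median log2 level of 3.63 against 6.64 for all genes. By median it stood at -0.48, -0.47 and 0.52 in wild type pools 1 to 3, so pools 1 and 2 were level. Its brightest members were Ache, the acetylcholinesterase (0.32 ± 0.47 SE), and the receptor subunits Chrna1 (0.49 ± 0.71 SE) and Chrng (0.71 ± 0.75 SE), the latter the fetal one. Ache was highest in wild type pool 2 (7.12) and lowest in wild type pool 1 (5.58), while Chrna1 and Chrng were lowest in wild type pool 2. Progenitor and regulator genes, 12 of 17 measured, stood at 0.27, -0.77 and 0.33 in wild type and 0.29, 0.02 and -0.13 in null pools. There the MEF2 genes Mef2c, Mef2a and Mef2d, which many cell types express, differed by -0.04 ± 0.14, -0.06 ± 0.09 and -0.03 ± 0.12 (SE) and ranged over less than 1 log2 unit, unlike the muscle genes. Of these 12 genes 6 were higher and 6 lower, and 0 genes of the related lists passed. In wild type pool 2 the median deviation of the 12 was -0.17, the lowest was -4.73, and 5 genes lay above their own mean.

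Markers of smooth muscle and cartilage took other orders of pools. Smooth muscle and pericyte genes, all 13 measured, stood between -0.27 and 0.34, with null pool 1 the lowest and wild type pool 3 the highest. Acta2, the actin of smooth muscle, measured 10.37, 10.36 and 10.61 in wild type and 10.46, 10.30 and 10.34 in null pools. The pericyte genes Pdgfrb and Rgs5, next by level, differed by -0.0037 ± 0.14 and -0.17 ± 0.13 (SE). Cartilage genes, all 8 measured, were lowest in null pool 1 (-0.55), where the muscle genes were highest, and stood at -0.03, 0.26 and 0.36 in wild type and -0.10 and 0.06 in null pools 2 and 3. All 8 were lower in null, with a median of -0.32, including Col2a1 (-0.19 ± 0.14 SE), Col9a1 (-0.26 ± 0.12 SE) and Col11a1 (-0.20 ± 0.21 SE), and none passed.

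Cochlear epithelium genes, 11 of 13 measured, stood at -0.13, -0.20 and -0.01 in wild type and -0.0021, -0.06 and 0.41 in null pools. They were lowest in wild type pool 2, which held the lowest signal for 6 of the 11 genes (54.5%, against 19.4% of all genes). By list mean, but not by median, their order within wild type was that of the muscle genes. The median deviations were 0.10, -0.25 and 0.07 in wild type pools 1 to 3. In wild type pool 1, 9 of the 11 genes lay above their own mean, and the lowest stood at -2.59. Null pool 3, low in muscle genes, was their highest pool. Epyc, Tecta and Coch, genes of the cochlear matrix and tectorial membrane, differed by -0.11 ± 0.16, 0.27 ± 0.27 and 0.36 ± 0.20 (SE). Over the 6 pools their log2 signals ran from 10.75 to 11.19, from 8.75 to 9.75 and from 8.26 to 9.15. Tendon genes, 5 of 6 measured, stood at -0.12, -0.52 and 0.59 in wild type and 0.18, -0.16 and 0.03 in null pools. Fmod, Tnmd and Thbs4, their brightest, differed by -0.87 ± 0.26, 0.33 ± 0.42 and 0.11 ± 0.49 (SE). By list mean the tendon genes, like the muscle genes, were lowest in wild type pool 2. Single tendon genes there ran from -1.91 to 0.62, and wild type pools 1 and 2 each held the lowest signal for 2 of the 5. In null pool 1 the tendon mean stood well below that of wild type pool 3, whereas the muscle genes were as high.

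Among 13 cardiac genes the bright ones and the rest parted. Actc1, the cardiac actin that fetal skeletal muscle also makes, measured 11.85, 10.77 and 12.17 in wild type and 12.30, 12.02 and 10.95 in null pools, in the order of the muscle genes within each genotype. Tnnt2, likewise made by fetal skeletal muscle, measured 7.76, 6.54 and 8.01 in wild type and 8.26, 7.19 and 7.27 in null pools. Ryr2, the calcium release channel of the heart, was highest in wild type pool 2 (5.97), where the muscle genes were lowest. The mean of the list was highest in wild type pool 1 (0.76) and lowest in wild type pool 3 (-0.56). By median null pool 1 (0.63) was the highest, ahead of wild type pool 1 (0.56), and wild type pool 3 (-0.68) again the lowest. In wild type pool 1 a single gene, Myl7, stood 4.57 above its mean. This list was dim, with a median log2 level of 3.61 against 6.64 for all genes. Pituitary genes, 6 of 7 measured, were highest by list mean in null pool 2, which held the highest signal for 4 of the 6. Lhb was highest in wild type pool 1 and Prl in wild type pool 2. Gh measured 12.58 in null pool 2 against 7.09, 7.38 and 7.64 in wild type and -5.60 and 7.11 in the other null pools. Muscle genes were near their mean in null pool 2 (0.12). The hormone genes Gh, Pomc and Tshb, the brightest of that list, differed by -2.68 ± 4.67, 0.44 ± 1.73 and 1.83 ± 1.56 (SE).

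**Figure D2:**
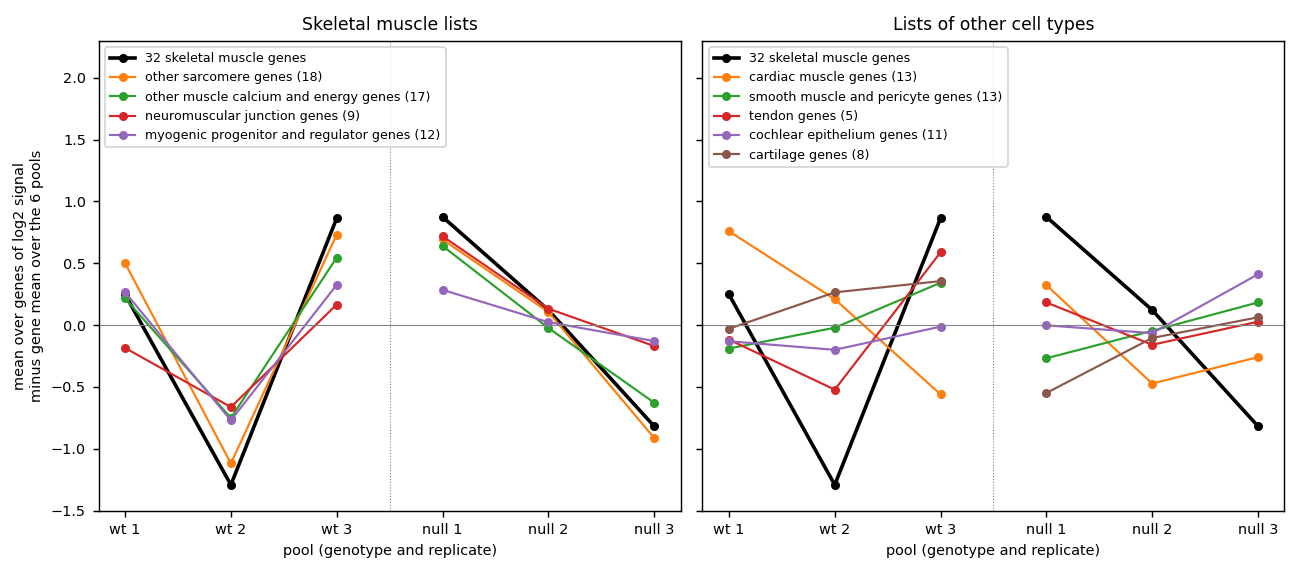
Mean over the genes of a list of log2 signal minus the gene's mean over the 6 pools (vertical axis) by pool (horizontal axis); the number of measured genes is in brackets, lines join the pools of one genotype, and the pituitary list is left out because its values run outside the axis. In the left panel the means of the 4 skeletal muscle lists dip with the 32 genes in wild type pool 2. In the right panel the other cell types take other orders over the 6 pools. There the means of the tendon and cochlear epithelium lists share the low wild type pool 2 and the wild type order. The medians of the cochlear epithelium list put wild type pool 1 above wild type pool 3.

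Because the pools differed in muscle signal, the genotype difference was also fitted with the mean level of the 18 other sarcomere genes in each array as a covariate. The median standard error of the 32 genes was 0.19 with it, against 0.65 without. The median difference was 0.13, positive for 27 genes and negative for 5, against 6326 positive of all 12393 genes. The covariate itself was lower in null (-0.08), which raises the fitted difference of genes that follow it. None of the 32 passed the adjusted threshold. At an unadjusted p under 0.05 there were 2 of the 32 (6.25%), against 5.19% of all genes, a share near the background. The 2 were Tnni1, at 0.54 ± 0.13 (SE, unadjusted p of 0.0133), and Myod1, at 0.91 ± 0.32 (SE, unadjusted p of 0.0411), with limma adjusted p = 0.855 and adjusted p = 0.942. Ttn stood at 0.24 ± 0.11 (SE), Myl4 at 0.41 ± 0.17 (SE), Acta1 at 0.16 ± 0.28 (SE) and Tnnc2 at 0.03 ± 0.14 (SE) in this fit. The covariate takes up 1 of the few degrees of freedom of 6 arrays, and it measures muscle signal without saying where that signal came from. A genotype difference shared by muscle genes would be taken up by the covariate, so this fit could not show it.

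**Figure D3:**
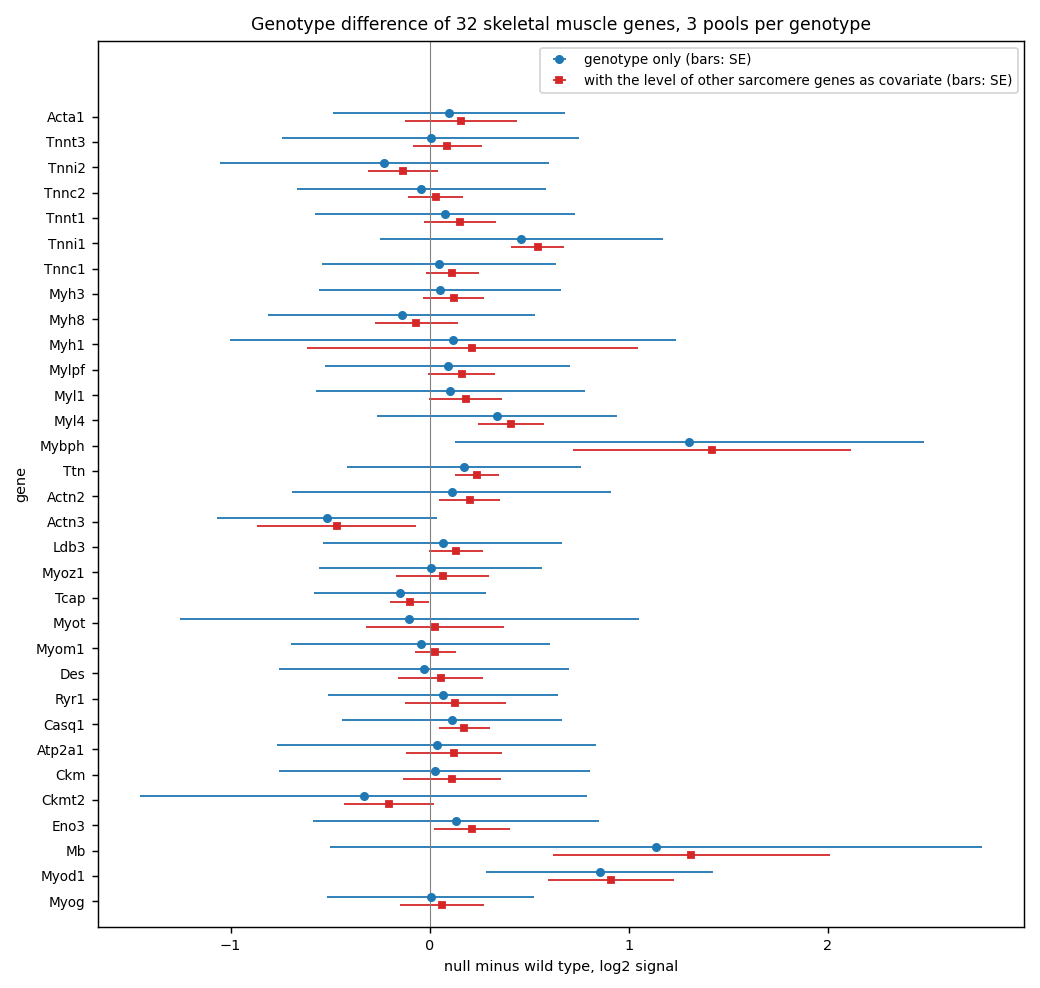
Null minus wild type difference in log2 signal (horizontal axis) of each of the 32 genes (vertical axis), from the fit with genotype only (circles) and with the other sarcomere level as covariate (squares); bars are standard errors, 3 pools per genotype. The bars of the second fit are shorter, and Tnni1 at 0.54 and Myod1 at 0.91 lie furthest from 0 in units of their error.

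Paired isoforms allow the shared pool level to be taken out within an array, where both members of a pair carry it alike. For 6 pairs the difference of their log2 signals was compared between genotypes with an exact permutation test, two-sided, whose smallest p for 3 against 3 pools is 0.1. The pairs were chosen with the values known. Tnni1 minus Tnni2, slow over fast troponin I, was -1.66, -1.62 and -1.90 in wild type and -1.17, -1.18 and -0.76 in null pools. All 3 null pools lay above the wild type pools. The wild type mean was -1.72 ± 0.15 (SD, n = 3), the null mean -1.04 ± 0.24 (SD, n = 3). Among single genes, 5.62% separated upwards and 4.98% downwards, and no such share was computed for ratios of 2 genes. The 3′ to 5′ ratio of beta-actin, a measure of RNA quality given at the end, also separated the genotypes, at 0.71 to 0.80 in wild type and 0.86 to 1.08 in null arrays, with null pool 3 the highest in both, and its part in the separation was not tested. The difference was 0.69, with an exact permutation p of 0.1 and 0.45 after Benjamini-Hochberg adjustment over the 6 pairs. With single pools left out it ran from 0.55 to 0.76, and on the values as deposited it was 0.66.

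The other pairs overlapped. Tnnt1 minus Tnnt3, slow over fast troponin T, differed by 0.07, and Tnnc1 minus Tnnc2 by 0.09, each with an exact permutation p of 0.7. Slow over fast troponin T was -1.13, -1.07 and -1.33 in wild type and -1.15, -1.31 and -0.85 in null pools. Actn2 minus Actn3 differed by 0.63, Myh3 minus Myh8 (embryonic over perinatal myosin) by 0.19 and Myl4 minus Myl1 by 0.23, each with an exact permutation p of 0.3. Actn2 minus Actn3 was 3.14, 1.49 and 2.35 in wild type and 3.25, 3.04 and 2.56 in null pools. It was lowest in wild type pool 2, so the pool level was not taken out in that pair. Whether the pairs differ from each other was not tested.

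**Figure D4:**
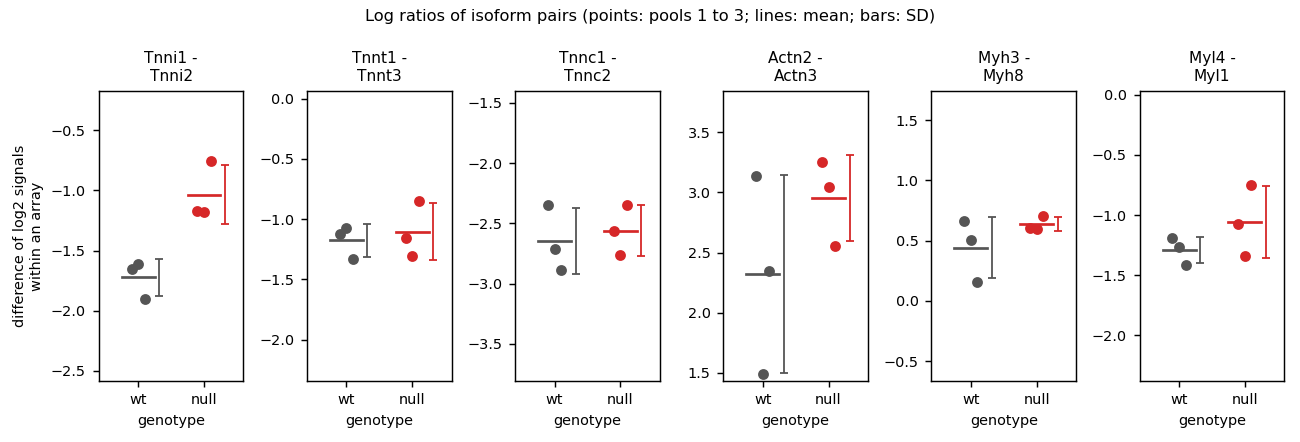
Difference of the log2 signals of 2 genes within an array (vertical axis, each panel spanning 2.4 log2 units) for wild type and null pools (horizontal axis); points are pools, lines means and bars SD, n = 3. Only for Tnni1 minus Tnni2 do the null pools, from -1.18 to -0.76, all lie above the wild type pools, from -1.90 to -1.62.

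Igf1 itself, at its brightest probe set, measured 11.14, 10.99 and 11.02 in wild type and 10.60, 10.46 and 10.72 in null pools, a difference of -0.46 ± 0.11 (SE, limma adjusted p = 0.884). Its order of pools did not follow that of the muscle genes. Which part of the gene was removed is not given in the sources used here, so that signal left in the null pools does not settle the genotype. Array medians of the deposited values ran from 5.61 (null pool 1) to 6.37, and arrays correlated at 0.939 to 0.960 over probe sets. The log2 ratio of the 3′ to the 5′ control probe set of beta-actin was 0.76, 0.71 and 0.80 in wild type and 0.89, 0.86 and 1.08 in null arrays, so that the null arrays all lay above the wild type arrays. For Gapdh this ratio was 0.19, 0.32 and 0.25 in wild type and 0.18, 0.35 and 0.52 in null arrays. Null pool 1, the highest in muscle level, had the lowest Gapdh ratio, and wild type pool 2 and null pools 2 and 3, the lowest in muscle level, had the highest ones. Within wild type the beta-actin ratio had the order of the muscle level. The part of RNA quality in the results was not tested.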

How the data were processed

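Gene expression was measured on 6 single-colour Affymetrix arrays of mouse cochlear RNA, 3 pools per genotype, with groups and replicate numbers taken from the sample titles. The deposited table holds log2 signals for 22690 probe sets; the log base was inferred from the values. How the authors summarised probes and corrected background is not stated in the labels. The deposited arrays were not on a common scale, so they were quantile normalized without the 64 control probe sets. Of 22626 probe sets, 20380 had 1 gene, 691 several and 1555 none in the platform annotation; 12393 genes were read at their brightest probe set, with no filter on level. All 32 symbols matched RefSeq (GRCm38.p6). The difference between genotypes was fitted by lmFit and eBayes of limma 3.58.1 (R 4.3.3) with genotype as the only term. Its two-sided p was adjusted by the Benjamini-Hochberg method over all 12393 genes, at a threshold of 0.05. On simulated data this procedure called 33% of genes with a log2 change of 1 and 65.2% with a change of 2. A gene that was not called can thus still differ. The titles call the pools biological replicates and the series text calls them independent. The number of arrays limits precision.

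The members, lists and tests were chosen with earlier results of these data known. Named genes were all members, the 3 brightest genes of each of 10 related lists, and Igf1. The isoform pairs and their alternatives were chosen after their values were seen. Same-numbered pools correlated in their deviations from the group means at 0.02, 0.09 and 0.0074 over all genes. Over the 32 genes the correlations were 0.28, 0.06 and 0.07. The main fit used no pairing, and whether same-numbered pools share an origin was not tested. Alternatives were the values as deposited, median centring, replicate number or title number as block, title number 16 only, a trended robust variance, array weights, the mean of probe sets, a filter at the 40th percentile, a pseudocount of 32, the sarcomere covariate, and each array left out.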

Additional observations from a re-analysis of the deposited data

How the results depend on the processing

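At an adjusted p of 0.05 in limma, 0 of the 32 muscle genes and 0 genes of the related lists passed in the main fit and under all 17 alternatives; over all genes the count was 0, except for 1 gene without null replicate 3 (0 to 1 over the 6 fits that leave out a pool). At an unadjusted p under 0.05 the number of the 32 genes was 0 in the main fit, 2 with the sarcomere covariate, 1 without wild type replicate 3 and 0 under each other alternative. The median difference of the 32 genes, 0.06 in the main fit, was -0.08 with the values as deposited, 0.10 with median centring, -0.22 with title number 16 only, -0.28 with array weights, 0.05 with the mean of probe sets, 0.05 with the filter on level (27 genes), 0.03 with the pseudocount and 0.13 with the covariate. With single pools left out it ran from -0.50 to 0.51. The cause of these turns of sign was not tested. The replicate block and the title number block left it at 0.06, since each block holds equal numbers of both genotypes, and changed no call. The sign turned for 13 of the 32 genes with the values as deposited, 17 with title number 16 only, 18 with array weights and 4 with the covariate. The distance between the highest and the lowest pool in muscle level was 2.17, against 1.95 with the values as deposited, 2.24 with median centring, 1.97 with the mean of probe sets and 1.65 with the pseudocount, and wild type pool 2 was the lowest under each of these scalings. Null pool 1, level with wild type pool 3 after quantile normalization, stood at 0.40 against 0.80 on the values as deposited. Signals near the bottom of the log2 scale, as of Mb and Mybph, limit what can be read from those genes.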
